A study of Caenorhabditis elegans with 12 samples.

Results

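The AC8 repeat cluster is a group of related loci near the left end of the X chromosome of Caenorhabditis elegans, and its small RNAs are described here in 4 strains. The members are the 6 rows AC8.3, AC8.4, AC8.7, AC8.10, AC8.11 and AC8.12 of 32238 rows in the count tables. They were taken as a local cluster whose counts persist in strains that lack RDE-4, so their level without RDE-4 against that with RDE-4 is the basis of the choice and is given as a description, with no test. All 6 passed the filter on low counts in every comparison fitted.

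The 4 strains were the age-1(hx546); rde-4(ne301) double mutant, the age-1(hx546) single mutant, the rde-4(ne301) single mutant and N2 wild type (WT), with 3 libraries each. Every library came from a synchronized population of whole hermaphrodites grown at 20 °C and collected as day-one adults with no visible embryos. The rde-4(ne301) allele is a null allele, whereas age-1(hx546) only reduces insulin/IGF-1 signaling, in which AGE-1 is the phosphoinositide 3-kinase. The 12 libraries held small RNAs enriched for a 5′ monophosphate with inserts of 18 to 40 bp.

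Primary small interfering RNAs (siRNAs) arise when Dicer cuts long paired RNA, and RDE-4 is the partner that holds this paired RNA for Dicer. They carry a 5′ monophosphate, whereas the secondary siRNAs that RNA-dependent RNA polymerases make from targeted transcripts carry a triphosphate and are taken up less by such libraries. In the endogenous pathways of C. elegans, RDE-4-dependent siRNAs are bound by the Argonautes ERGO-1, in embryos and the maternal germline, and ALG-3 and ALG-4, in spermatogenesis, while Dicer makes microRNAs without the help of RDE-4. The values are counts of reads on the strand opposite to a gene, the orientation that an siRNA has when it pairs with the transcript. Such a count does not show which enzyme made the RNA.

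The libraries held 2449703 to 3590005 antisense counts each. Genes that lie opposite miRNA genes took most of them (59.8% to 81.7% per library), and genes opposite tRNA genes took 17.7% to 28.4% in the double mutant, 5.64% to 23.9% in age-1, 14.3% to 21.7% in rde-4 and 5.05% to 8.28% in WT. By their annotated exons, all 6 AC8 members belong to the genes that face no annotated gene on the opposite strand. This class took 2.95% ± 0.321 in the double mutant, 10.8% ± 0.932 in age-1, 4.75% ± 0.379 in rde-4 and 8.19% ± 1.66 in WT (SD, n = 3). The strains thus differed strongly in what filled the libraries, and the scale chosen for comparing them moves every value below. The scales used are CPM of all counts in the library (total CPM), CPM after TMM scaling, which sets the bulk of the tested genes alike between libraries (TMM CPM), and CPM of the counts opposite miRNA genes (miRNA CPM), where CPM is counts per 1000000 counts of the scale.

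The 6 members lie within 14.1 kb of each other on the X chromosome (WBcel235, X:226651-240781), and the annotation placed them in 2 blocks of 4.7 kb with the same order of genes. The left block holds AC8.4 (X:226651-227394, minus strand, 3 exons), AC8.3 (X:228080-229474, minus strand, 7 exons) and AC8.7 (X:230433-231365, plus strand, 5 exons). The right block holds AC8.11 (X:236067-236810, minus strand, 3 exons), AC8.10 (X:237496-239177, minus strand, 8 exons) and AC8.12 (X:239849-240781, plus strand, 5 exons). AC8.4, AC8.3, AC8.11 and AC8.10 are annotated as protein-coding genes, and AC8.7 and AC8.12 as pseudogenes. Only 55 of 6021 annotated X genes start left of AC8.4.

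The exon coordinates of the blocks correspond at a single shift of 9416 bases. All 3 exons of AC8.4 have a counterpart of the same length in AC8.11 at that shift (654 bases), and so do all 5 exons of AC8.7 in AC8.12 (744 bases). Of the 7 exons of AC8.3 and the 8 of AC8.10, 6 correspond in the same way, over 1044 bases. The microRNA genes mir-258.2 and mir-258.1 sit at the same place in each block, on the plus strand between the minus-strand members, and 2 of the 3 exons of the pseudogene AC8.9, to the right of the left block, have counterparts in the pseudogene AC8.1, to the right of the right block. The blocks were compared by annotated coordinates, not by sequence.

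**Figure D1:**
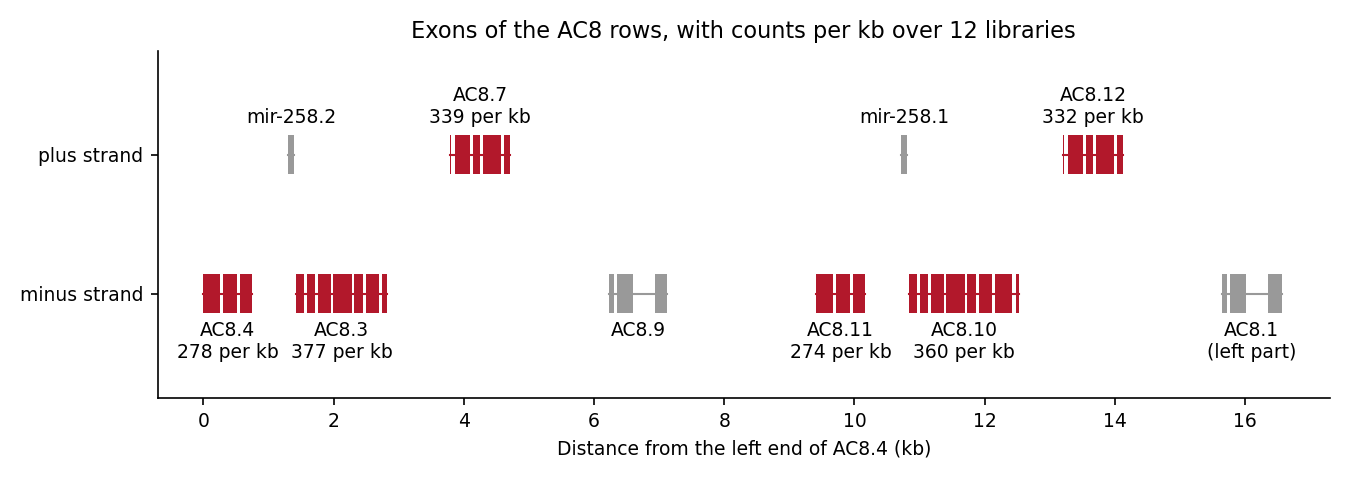
Exons of the 6 AC8 members (red) and of neighbouring annotated genes (grey) by distance from the left end of AC8.4 in kb, with the plus strand above and the minus strand below. The numbers under or over the members are their counts per kb summed over 12 libraries, from 274 for AC8.11 to 377 for AC8.3, and the gene order of the left block recurs 9416 bases to the right.

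Reads that fit both blocks were kept in the mapping, so a read can be assigned to either copy and the value of a single row is uncertain. The shares within the pairs followed the counted lengths. AC8.7 held 252 counts over the 12 libraries and AC8.12 held 247, so that 50.5% of the pair lay on AC8.7 (exact Clopper-Pearson 95% interval 46.0 to 55.0%), at a length share of 50%. AC8.3 held 424 counts and AC8.10 held 486, which puts 46.6% on AC8.3 (interval 43.3 to 49.9%) at a length share of 45.5%. In both pairs the interval included the share that length alone gives. Since a read that fits both copies can be assigned to either, this does not show how much RNA each copy gives rise to.

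AC8.11 stood apart in its total, whereas its density was close to that of its counterpart AC8.4. It held 1546 counts over 12 libraries, against 182 for its counterpart AC8.4, and AC8.4 thus held 10.5% of that pair (interval 9.12 to 12.1%). The length over which AC8.11 was counted is 5640 bases in the deposited tables, 8.62 times its annotated exons of 654 bases, and AC8.4 makes up 10.4% of the counted length of the pair. Where the other bases of AC8.11 lie is not given in the sources used here, so that they may include sequence of other members. Sums over the cluster are therefore given without AC8.11 unless stated.

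Per kb of counted length the members lay close together. Over 12 libraries AC8.3 had 377 counts per kb (exact Poisson 95% interval 342 to 415), AC8.10 had 360 (329 to 393), AC8.7 had 339 (298 to 383), AC8.12 had 332 (292 to 376), AC8.4 had 278 (239 to 322) and AC8.11 had 274 (261 to 288). Each row's interval overlapped that of the next in this order. The intervals of AC8.3 and AC8.10 lay above the intervals of AC8.4 and AC8.11, and those of AC8.7 and AC8.12 lay above that of AC8.11 only. In the 3 libraries of a strain the levels per kb overlapped more widely: in WT, AC8.3 averaged 10.9 ± 4.32 TMM CPM per kb and AC8.4 averaged 7.40 ± 4.49 (SD, n = 3). These intervals cover counting error only.

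Antisense reads were counted from both strands of each block. The plus-strand rows AC8.7 and AC8.12 held 499 counts (335 per kb) and the minus-strand rows AC8.3, AC8.4 and AC8.10 held 1092 (349 per kb). The ratio of plus-strand to minus-strand rows per kb averaged 0.954 ± 0.345 in the double mutant, 1.03 ± 0.293 in age-1, 0.907 ± 0.174 in rde-4 and 1.03 ± 0.266 in WT (SD, n = 3). Over all 12 libraries it ranged from 0.652 to 1.37, so the strains overlapped widely in it.

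The small RNAs were dense over the members and sparse beside them. Choosing rows whose counts persist favours rows with many reads, so this difference is given as a description. The 5 other rows named AC8 held 4.54 to 56.7 counts per kb over 12 libraries, against 274 to 377 for the members, and none of the 5 passed the low-count filter. AC8.9, in the gap between the blocks, had 9 counts in all (17.1 per kb), and AC8.1, to the right of them, had 83 (37.5 per kb). The row of mir-258.2 had 2 counts (20.8 per kb) and that of mir-258.1 had 1 (10.4 per kb) on the strand opposite to the hairpins, between members that held 182 counts or more. These rows are only 96 bases long, and their reads were counted on the other strand than those of the members beside them. Of the 28 annotated neighbours within 50 kb that the tables list, none overlapped a member, 17 had at most 12 counts over the 12 libraries and 3 passed the filter (T08D2.3, T08D2.8 and Y73B3B.3). The neighbour with most counts was the pseudogene T08D2.3, with 482 (141 per kb).

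The minus-strand gene at the left edge of the left block, AC8.4, was the row with the fewest counts. It had 15, 15 and 7 counts in the double mutant, 12, 13 and 26 in age-1, 18, 18 and 10 in rde-4, and 22, 11 and 15 in WT. At 7 to 26 counts per library its strains overlapped throughout. The longer minus-strand gene AC8.3 had 25, 30 and 28 counts in the double mutant, 43, 25 and 52 in age-1, 45, 30 and 20 in rde-4, and 47, 34 and 45 in WT. All 3 double-mutant counts of AC8.3 lay below all 3 WT counts, and the other strains overlapped with both. The share of all genes with that order is not given here, so nothing is read from it.

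The plus-strand pseudogene AC8.7 had 10, 22 and 12 counts in the double mutant, 21, 22 and 30 in age-1, 18, 23 and 14 in rde-4, and 27, 32 and 21 in WT. Its highest double-mutant library reached the lowest age-1 libraries. Its counterpart AC8.12 had 12, 24 and 19 counts in the double mutant, 16, 21 and 26 in age-1, 20, 19 and 17 in rde-4, and 22, 26 and 25 in WT. AC8.12 was the only member whose 3 rde-4 counts all lay below its 3 WT counts, although by no more than 2 counts between the nearest libraries, and on the TMM CPM scale the strains overlapped. Of the genes tested in this comparison, 24.5% had all rde-4 counts below all WT counts, so nothing is read from 1 of 6.

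AC8.10, the counterpart of AC8.3, had 31, 28 and 39 counts in the double mutant, 36, 28 and 57 in age-1, 49, 36 and 38 in rde-4, and 47, 46 and 51 in WT. Its double-mutant counts all lay below its WT counts, as did those of AC8.3 and, listed next, of AC8.11. Without the share of all genes in that order, nothing is read from these members. AC8.11, with its long counted length, had 108, 106 and 103 counts in the double mutant, 129, 99 and 188 in age-1, 158, 112 and 97 in rde-4, and 149, 133 and 164 in WT. In raw counts age-1 replicate 3 was the highest age-1 library for all 6 members, and rde-4 replicate 3 the lowest rde-4 library for every member but AC8.10. As TMM CPM, age-1 replicate 3 was the highest only for AC8.4 and AC8.10, while rde-4 replicate 3 stayed the lowest for every member but AC8.10.

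**Figure D2:**
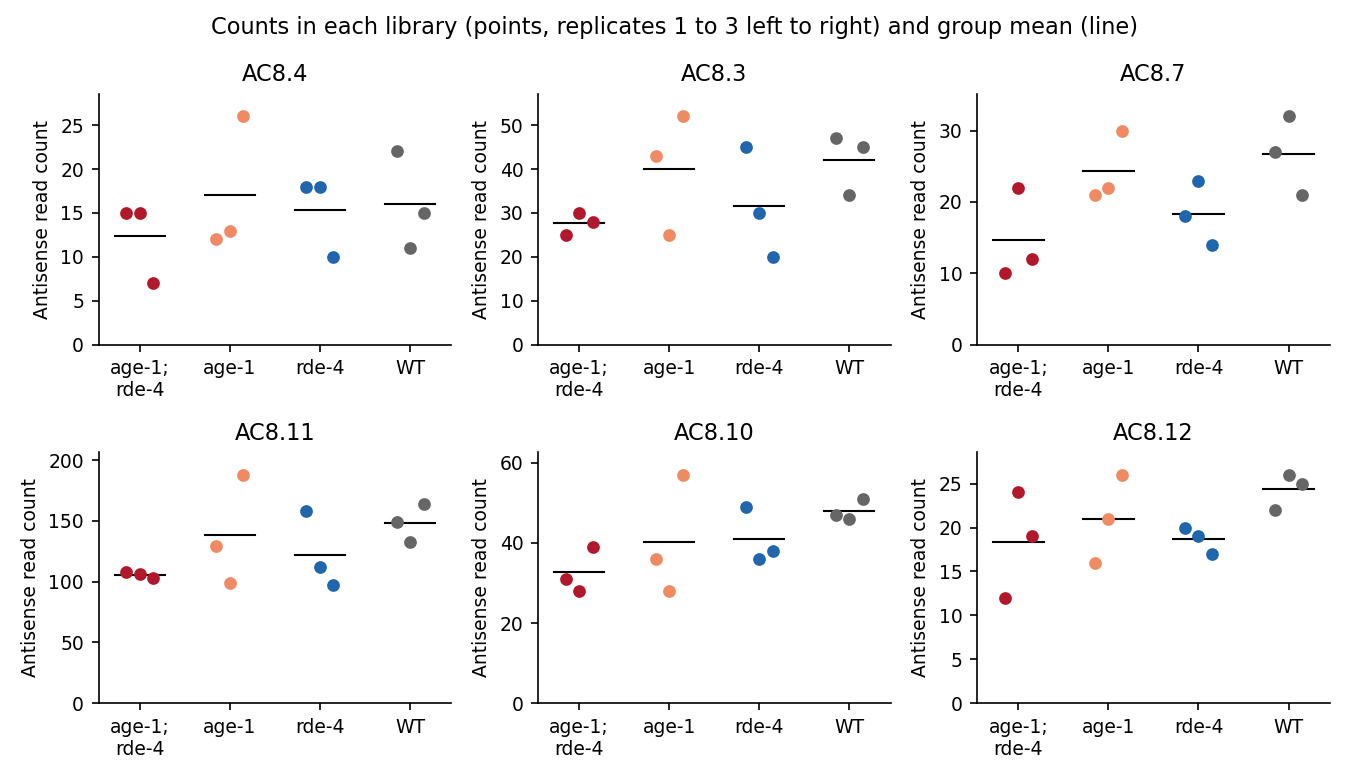
Antisense read counts (vertical axis, from 0) of each AC8 member in the double mutant, age-1, rde-4 and WT, with 1 point per library and a line at the mean of 3. No strain is near 0 for any member, and the lowest value is 7 for AC8.4 in a double-mutant library.

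Counts persisted without RDE-4, as the choice of the members fixed. Summed over 3 libraries, the members in rde-4 held 68.8% (AC8.7) to 95.8% (AC8.4) of their WT counts, and in the double mutant 60.3% (AC8.7) to 87.3% (AC8.12) of their age-1 counts. The log2 fold change of rde-4 over WT under TMM scaling was 0.23 for AC8.4 (SE 0.47), -0.10 for AC8.3 (SE 0.41), -0.20 for AC8.7 (SE 0.38), 0.04 for AC8.11 (SE 0.39), 0.10 for AC8.10 (SE 0.35) and -0.04 for AC8.12 (SE 0.35). Their median was 0.00, beside 0.06 for the 4797 genes tested, and it was -0.29 beside -0.24 when libraries were scaled by their totals. In this comparison 26.7% of the genes tested were past the threshold (edgeR quasi-likelihood test, Benjamini-Hochberg adjusted p of 0.05), 10.8% higher and 16.0% lower in rde-4, and nothing is read from the members' side of it.

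Loci known to need RDE-4 fell in the same libraries. Of 10 known targets of the Argonaute ERGO-1, the tables list 8, which together held 41 counts in the double mutant against 4553 in age-1, and 114 in rde-4 against 5848 in WT. The target K02E2.6 had 1, 1 and 0 counts in the double mutant and 560, 597 and 700 in age-1. It had 4, 4 and 6 counts in rde-4, against 724, 553 and 910 in WT, a log2 fold change of -6.96 (SE 0.57, edgeR adjusted p = 2.9e-06). W04B5.1 had 1, 0 and 0 counts in the double mutant, 244, 295 and 611 in age-1, 0, 0 and 2 in rde-4, and 181, 218 and 527 in WT. All 7 of these targets that could be tested fell in both comparisons. Over the same libraries the 6 AC8 members, with AC8.11 included, held 634 counts in the double mutant against 844 in age-1, and 742 in rde-4 against 917 in WT. AC8.11 alone held 317, 416, 367 and 446 of these counts in the same order of strains. Without AC8.11 the mean sum per library was 106 in the double mutant against 143 in age-1, and 125 in rde-4 against 157 in WT.

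**Figure D3:**
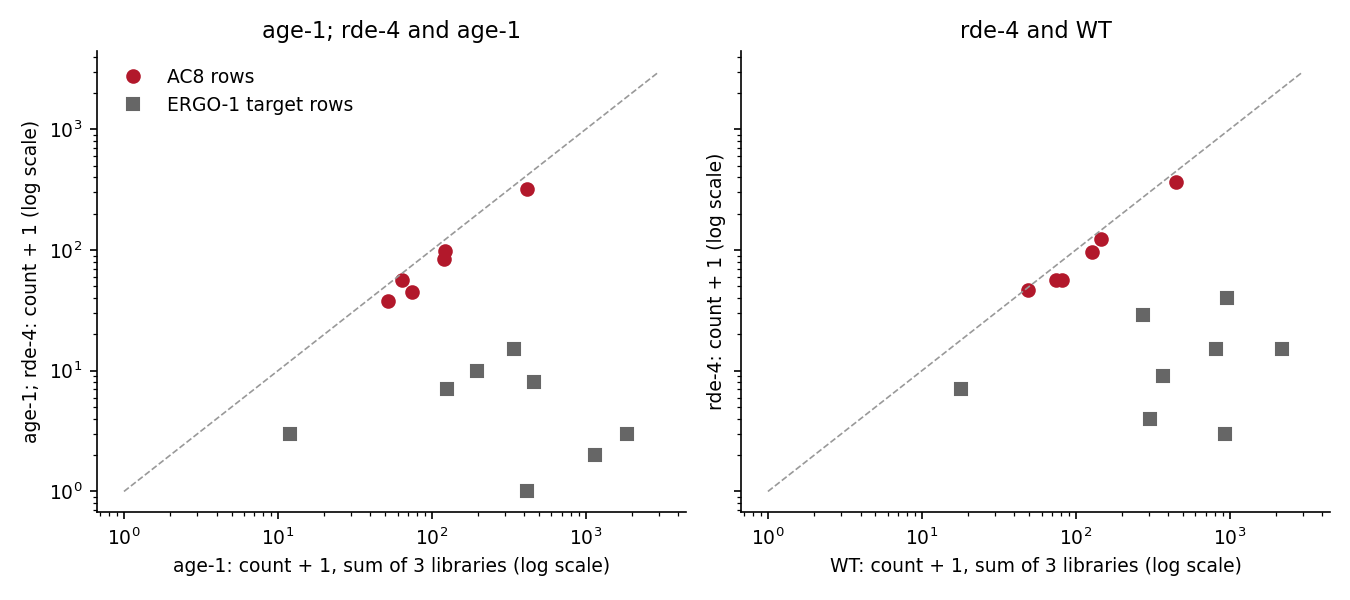
Counts without RDE-4 (vertical axes) against counts with RDE-4 (horizontal axes), both as the sum of 3 libraries plus 1 on log scales, for the 6 AC8 rows (red circles) and 8 ERGO-1 target rows (grey squares), with the double mutant and age-1 on the left and rde-4 and WT on the right. The AC8 rows lie just under the dashed line of equal counts, at 634 counts against 844 and 742 against 917 in all with AC8.11 included. The ERGO-1 rows together lie far below it, at 41 against 4553 and 114 against 5848. F14F7.5 is the ERGO-1 row nearest to the line, at 2 against 11 and 6 against 17.

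In the age-1 background the direction of the members depended on the scale. Under TMM scaling the log2 fold change of the double mutant over age-1 was 0.96 for AC8.4 (SE 0.50), 0.86 for AC8.3 (SE 0.40), 0.65 for AC8.7 (SE 0.45), 1.02 for AC8.11 (SE 0.37), 1.1 for AC8.10 (SE 0.39) and 1.18 for AC8.12 (SE 0.43), with a median of 0.99 beside 0.02 for the 4003 genes tested. Scaled by library totals the median of the members was -0.40, beside -1.32 for all genes tested, and scaled by the counts opposite miRNA genes it was -0.19, beside -1.15. Relative to the median gene of the same fit the members were thus 0.97 higher with TMM scaling, 0.93 with library totals and 0.96 with the miRNA scale, but 0.51 with DESeq2, 0.53 without the filter on low counts and 0.72 in the fit of all 12 libraries, whereas their raw counts and their share of all counts were lower on average in the double mutant. Of the genes tested, 49.1% were past the threshold in this comparison, 19.1% higher and 30.0% lower. The members were chosen on this contrast, and no test of them is given.

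The sum of the 5 rows other than AC8.11 shows the effect of the scale on the level of the cluster. It was 93, 119 and 105 counts in the double mutant, 128, 109 and 191 in age-1, 150, 126 and 99 in rde-4, and 165, 149 and 157 in WT. WT libraries lay closest together, and age-1 replicate 3 was the highest of all 12. As total CPM the sum averaged 34.9 ± 5.79 in the double mutant, 45.8 ± 15.9 in age-1, 47.5 ± 8.07 in rde-4 and 57.9 ± 2.90 in WT (SD, n = 3). On this scale the rde-4 and the double-mutant libraries lay below all WT libraries. Of the genes tested, 23.5% had all rde-4 libraries below all WT libraries on it. No such share is given here for the double mutant against WT, so nothing is read from either order.

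On the TMM CPM scale the same sum averaged 66.7 ± 2.29 in the double mutant, 33.7 ± 5.79 in age-1, 44.9 ± 11.4 in rde-4 and 45.2 ± 14.1 in WT (SD, n = 3), and all 3 double-mutant libraries stood above the other 9. As miRNA CPM it averaged 55.7 ± 7.57 in the double mutant, 63.9 ± 15.2 in age-1, 69.3 ± 14.6 in rde-4 and 72.9 ± 1.41 in WT, and the double-mutant libraries lay below all WT libraries, while rde-4 overlapped with WT, age-1 with WT, and the double mutant with each single mutant. The double mutant was thus the highest strain on 1 scale and the lowest on the other scales. Of the genes tested, 23.9% were higher without overlap in the double mutant than in age-1 as TMM CPM, and 13.7% higher than in rde-4. No such share is given here for the double mutant against WT or on the miRNA CPM scale, so nothing is read from these orders. The ERGO-1 rows did not turn with the scale: their sum was 107-fold lower in the double mutant than in age-1 as total CPM, 42-fold lower as TMM CPM and 94.8-fold lower as miRNA CPM.

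**Figure D4:**
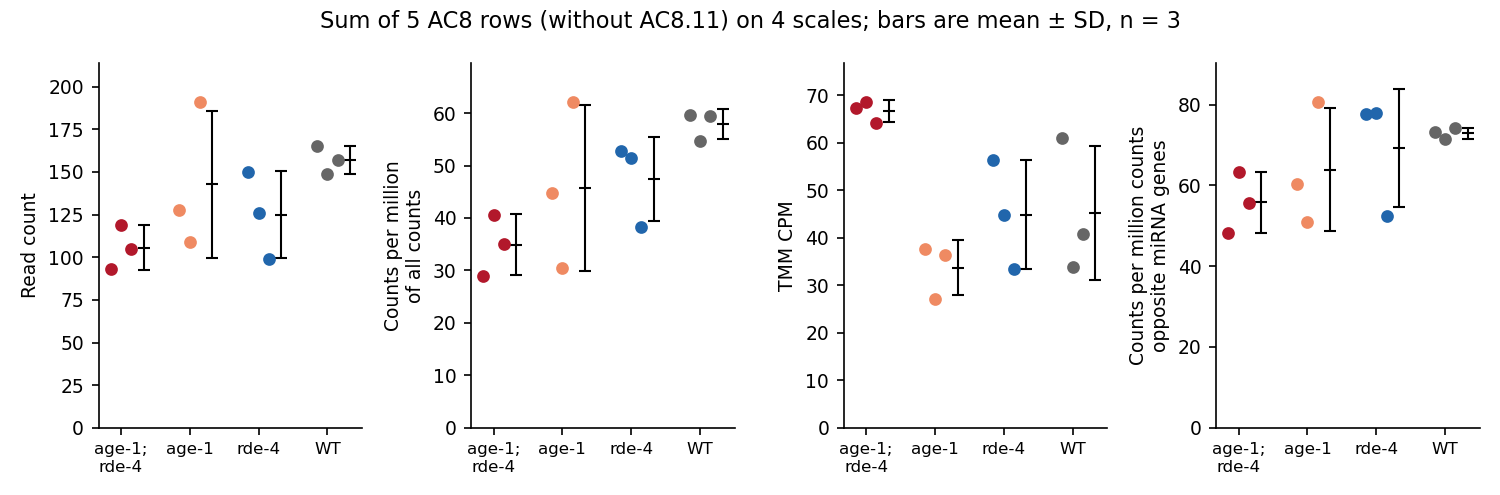
Sum of the 5 AC8 rows other than AC8.11 in each library (points) of the double mutant, age-1, rde-4 and WT as read counts, total CPM, TMM CPM and miRNA CPM, with mean ± SD of 3 libraries (bars). The double mutant averages 34.9 and is lowest as total CPM, but averages 66.7 and is highest as TMM CPM.

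In the double mutant, age-1 and WT, the library with the highest share of counts opposite tRNA genes had the lowest total CPM over the 5 rows. In rde-4 it did not. Counts opposite tRNA genes are part of the total that total CPM is divided by. Age-1 replicate 2, with 23.9% of its counts opposite tRNA genes, had 30.4 total CPM over the 5 rows, replicate 1, with 9.25%, had 44.8, and replicate 3, with 5.64%, had 62.1. In rde-4, replicates 1 to 3, with 20.6%, 21.7% and 14.3%, had 52.8, 51.4 and 38.2 total CPM, so that the lowest tRNA share went with the lowest level. The double mutant, with 28.4%, 19.5% and 17.7%, had 29, 40.6 and 35.1 total CPM. WT, with 5.54%, 8.28% and 5.05%, had 59.7, 54.6 and 59.5 total CPM. Between strains the tRNA share was 21.9% ± 5.73 in the double mutant, 12.9% ± 9.65 in age-1, 18.9% ± 3.98 in rde-4 and 6.29% ± 1.74 in WT. Its part in the levels of the members was not tested.

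The comparison of age-1 with WT addresses the effect of weaker insulin signaling on the cluster, and no member passed the threshold. For age-1 over WT, 0 of the 6 members passed an adjusted p of 0.05 in the edgeR quasi-likelihood test, where 10.9% of 5000 genes did (7.66% higher, 3.28% lower). None had an unadjusted p under 0.05 and 0 of the 5 that DESeq2 tested passed. The fold change of largest size was that of AC8.10, with 36, 28 and 57 counts in age-1 against 47, 46 and 51 in WT and a log2 value of -0.63 (SE 0.35, 95% interval -1.38 to 0.13, edgeR adjusted p = 0.19). AC8.12 stood at -0.56 (SE 0.37), AC8.7 at -0.49 (SE 0.37), AC8.11 at -0.49 (SE 0.34), AC8.3 at -0.46 (SE 0.39) and AC8.4 at -0.34 (SE 0.48), with edgeR adjusted p-values of 0.25 to 0.59 for these 5. The intervals allow a fold from 0.384 (AC8.10) up to 1.60 (AC8.4), so a difference in either direction within these bounds is not excluded by these libraries.

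All 6 values lay below 0, but so did the median of all genes tested (-0.17). Scaled by library totals the median of the members was -0.33 beside -0.05, and by the counts opposite miRNA genes -0.17 beside 0.12. With the replicate number as a block, since libraries of the same number deviated together in these strains, 39.2% of the genes tested were past the threshold and still 0 of the 6 members. In that fit the members had edgeR adjusted p-values of 0.088 (AC8.10) to 0.59 (AC8.4) and SEs of 0.27 (AC8.11) to 0.43 (AC8.4). The SEs and intervals given above are from the fit without the block. Leaving out 1 library moved the share of all genes from 0.16% without age-1 replicate 2 up to 35.6% without age-1 replicate 3, with 0 members past the threshold each time. On the TMM CPM scale AC8.12 was the only member whose age-1 and WT libraries did not overlap, with 4.96 ± 0.247 TMM CPM in age-1 and 6.84 ± 1.16 in WT (SD, n = 3). Of all genes tested, 14.7% were lower in age-1 without overlap on that scale, so 1 of 6 members is near the background. On raw counts all 6 overlapped.

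The comparison of the double mutant with rde-4 asks what the age-1 mutation does where RDE-4 is missing. Again 0 of the 6 members passed the threshold in edgeR, where 0.866% of 3581 genes did (0.531% higher, 0.335% lower), none had an unadjusted p under 0.05, and DESeq2 called 0 of 6. AC8.12, with 12, 24 and 19 counts in the double mutant against 20, 19 and 17 in rde-4, had the log2 fold change of largest size, 0.59 under TMM scaling (SE 0.41, 95% interval -0.27 to 1.44, edgeR adjusted p = 0.48). AC8.3 stood at 0.45 (SE 0.41), AC8.11 at 0.44 (SE 0.37), AC8.4 at 0.33 (SE 0.46), AC8.10 at 0.31 (SE 0.39) and AC8.7 at 0.29 (SE 0.43), with edgeR adjusted p-values of 0.57 to 0.76. The intervals allow a fold from 0.642 (AC8.4) up to 2.71 (AC8.12).

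Here too the sign depended on the scale. The median of the members was 0.38 with TMM scaling, beside -0.04 for all genes tested, but -0.48 beside -0.88 with library totals and -0.33 beside -0.73 with the miRNA scale, and 0 members passed the threshold on any of them. The share of all genes past the threshold was 28.8% with library totals, and it was 0.189% without rde-4 replicate 1 and 1.09% without double-mutant replicate 1. Relative to the median gene the members stood 0.40 to 0.42 higher on these 3 scales, 0.68 higher with DESeq2 and 0.67 higher without the filter on low counts. On the TMM CPM scale AC8.3, AC8.11 and AC8.12 did not overlap between the strains and were higher in the double mutant, as were 13.7% of all genes tested. As total CPM, AC8.10 and AC8.11 did not overlap and were lower in the double mutant, as were 45.0% of all genes tested.

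**Figure D5:**
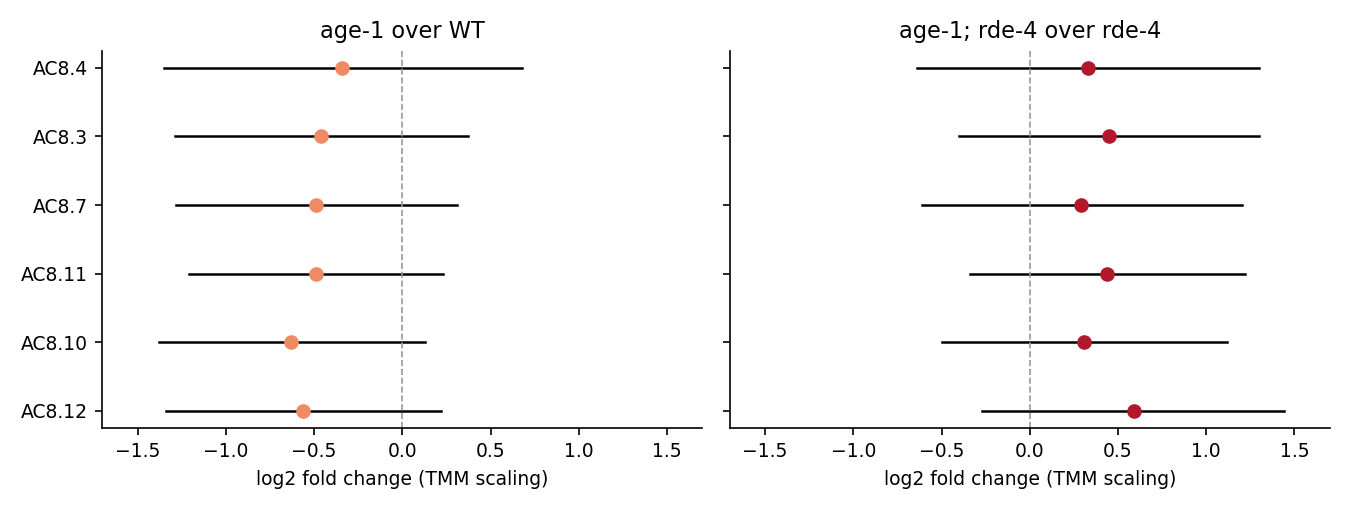
Log2 fold change (points) of each AC8 member with its 95% interval (lines) for age-1 over WT and for the double mutant over rde-4 under TMM scaling. All 12 intervals include 0, with values of -0.63 to -0.34 for age-1 over WT and 0.29 to 0.59 for the double mutant over rde-4.

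How far the change on losing RDE-4 differed between the age-1 and the WT background was taken from the fit of all 12 libraries, and it was 0.75 (AC8.4, SE 0.68) to 1.23 (AC8.12, SE 0.52) on the log2 scale under TMM scaling. It was -0.41 to 0.20 with library totals and -0.43 to 0.17 on the miRNA scale. It is made of contrasts on which the members were chosen and is given as values, where 0.154% of all genes tested passed the threshold.

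The members varied together over the 12 libraries. The Pearson correlation of a member's log2 TMM CPM with the mean of the other 5 was 0.937 for AC8.11, 0.900 for AC8.3, 0.828 for AC8.10, 0.821 for AC8.12, 0.785 for AC8.4 and 0.664 for AC8.7. Reads that fit both blocks and the scaling factor of each library are common to these points. Among 1789 genes with a mean of at least 10 TMM CPM, the 5 whose pattern was most like that of the members were F15D4.5 (r = 0.953), Y52B11A.11 (0.938), Y76B12C.8 (0.930), T22B2.2 (0.927) and bath-20 (0.926), all over 12 libraries. F15D4.5 averaged 107 TMM CPM in the double mutant, 54.4 in age-1, 71.1 in rde-4 and 64.2 in WT. Y52B11A.11 averaged 30.9 TMM CPM in the double mutant, 14.7 in age-1, 22.4 in rde-4 and 20.1 in WT. Both had the double mutant highest and age-1 lowest on this scale, like the members' sum, which their choice by likeness to the members favours.

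T08D2.3, the pseudogene neighbour with most counts, had 16, 21 and 27 counts in the double mutant, 32, 32 and 66 in age-1, 42, 44 and 42 in rde-4, and 38, 61 and 61 in WT. Its log2 fold change of rde-4 over WT was 0.05 (SE 0.33, edgeR adjusted p = 0.96) and that of the double mutant over age-1 was 0.38 (SE 0.41, adjusted p = 0.46), so it passed the threshold in neither comparison. For age-1 over WT it stood at -0.64 (SE 0.34, edgeR adjusted p = 0.17), and for the double mutant over rde-4 at -0.38 (SE 0.39, edgeR adjusted p = 0.65), where the members stood at 0.29 to 0.59. In whole worms, fewer cells that hold a small RNA and less of it per cell cannot be told apart, for the members and for this neighbour.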

How the data were processed

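The authors aligned small RNA reads with Bowtie, run through QuasR, to build WBcel235 with up to 50 hits allowed, and counted those lying opposite to each gene. Versions of these tools were not given in the sources used here. Deposited were raw, unnormalized counts per gene in 3 tables. The columns of 6 libraries recur between tables with 0 differing values, and each library was used once. The rows that name no gene numbered 0.

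Pairs of strains were compared by the two-sided quasi-likelihood test of edgeR 4.0.16 (R 4.3.3) after TMM scaling and the default filterByExpr, with Benjamini-Hochberg adjustment over all genes tested and a threshold of 0.05. Standard errors come from the F statistic. The fits were first run on simulated counts with the same fixed spread for every gene, to check that set fold changes were recovered. The simulation did not copy the spread between these libraries. Levels are TMM CPM over all 12 libraries. Shares have exact binomial and densities exact Poisson 95% intervals, which cover counting error only. Exons came from the Ensembl annotation of the same build, and the counted length equalled the exon length for 73.7% of 30571 matched genes.

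Alternatives were DESeq2 1.42.0, RLE size factors, library totals, counts opposite 43 genes that face miRNA genes, no filter, a replicate block, a fit of all libraries and leaving out each library. Libraries with the same replicate number deviated together for age-1 and WT (correlations 0.319, 0.205 and 0.358) and for rde-4 and WT (0.304, 0.172 and 0.380), so the number pairs those libraries. The SEs, intervals and adjusted p-values of the members are from the fits without that block unless stated. The genes named are the 6 members, other AC8 rows, neighbours within 50 kb that passed the filter, 2 ERGO-1 targets of a list of 10, and the 5 genes with the most similar pattern (prior count 2). The members, lists and tests were chosen with earlier results of these data known.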

Additional observations from a re-analysis of the deposited data

Results flagged for a closer look

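AC8.12 was singled out because its age-1 libraries all lay below its WT libraries on the TMM CPM scale, with means of 4.96 TMM CPM in age-1 and 6.84 TMM CPM in WT, while its double-mutant libraries all lay above its rde-4 libraries, with means of 11.4 TMM CPM in the double mutant and 6.67 TMM CPM in rde-4. Of all genes tested, 14.7% were lower in age-1 without overlap and 13.7% were higher in the double mutant without overlap on this scale. The log2 difference between these effects was 1.23 (SE 0.52) under TMM scaling, 0.20 with library totals and 0.17 with counts opposite miRNA genes. It was not tested, since it also holds the contrasts on which the members were chosen.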

How the results depend on the processing

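In both comparisons of the age-1 mutation, 0 of the 6 members passed the threshold under any of 13 alternatives. A change of sign between values that missed the threshold was not counted as a reversal: AC8.4 changed sign in 2 of 13 alternatives for age-1 over WT, and members of the double mutant over rde-4 in 2 or 3 of 13. The background moved more. For age-1 over WT, 547 genes passed, against 975 with DESeq2, 166 with library totals, 930 without the filter, and 9 to 1924 when 1 library was left out (11, 9 and 1924 without age-1 replicates 1, 2 and 3, and 34, 231 and 96 without WT replicates 1, 2 and 3). With the replicate block 1958 passed. For the double mutant over rde-4, 31 genes passed, against 80 with DESeq2, 1030 with library totals (12 higher, 1018 lower, against 19 and 12), 509 with counts opposite miRNA genes, 69 without the filter, and 8 to 49 when 1 library was left out (49 and 9 without double-mutant replicates 1 and 3, 8 and 10 without rde-4 replicates 1 and 2). Its libraries shared their deviations by number only weakly (correlations 0.246, 0.073 and 0.122, each above that with any other number), and those of the double mutant with age-1 did not do so in every pair (0.186, -0.168 and 0.148), so the numbers were not taken as pairs, and the replicate block gave 181 and 2007 genes for these comparisons. The members' median of the double mutant over age-1, 0.99, was 0.68 with DESeq2, -0.40 with library totals, -0.19 with counts opposite miRNA genes, 0.38 without the filter, and 0.72 to 1.23 when 1 library was left out. The causes were not tested. For rde-4 over WT the members' median stayed between -0.29 and 0.25. At 7 to 57 counts a library for the 5 rows other than AC8.11, and with 3 libraries a strain, differences inside the intervals given are not excluded.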
